A study of Mus musculus with 2 samples.

Results

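Cluster 3 is one of 17 clusters, numbered 0 to 16, into which the authors divided the immune cells of the mouse colon, and its members are the cells that carry this cluster number in the deposited cell annotation. It holds 702 of 6886 cells, 345 from 5XFAD and 357 from wild-type (WT) mice. The cells were live CD45+ leukocytes, CD45 being the surface protein shared by leukocytes, sorted from the dissociated colon of 9-month-old female littermates. The 5XFAD group carried human amyloid precursor protein and presenilin transgenes with familial Alzheimer disease mutations, which a Thy1 promoter drives mainly in neurons; the WT group carried none. Each genotype was 1 library made from the pooled cells of 3 mice with a droplet method that tags the 3′ end of each RNA molecule with a unique molecular identifier (UMI). With 1 library per genotype no difference could be tested, all intervals are 95% intervals that cover counting error only, and neither mouse-to-mouse spread nor preparation is in them.

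Clusters 0 to 5 are B cells, the lymphocytes that display an antibody molecule, the B cell receptor, on their surface. A naive B cell carries this receptor as IgM and IgD with either a kappa or a lambda light chain, recirculates through lymphoid tissue under the guidance of chemokine and lipid receptors, and presents antigen on MHC class II. In the colon such cells gather in lymphoid follicles of the wall, while IgA-secreting plasma cells lie in the lamina propria. Cluster 3 was described against clusters 0, 1, 2, 4 and 5, which hold 4200 cells together, and between the 2 libraries. The clusters were made from the expression of these same genes, so every comparison of cluster 3 with the other clusters is a description.

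The working name of cluster 3 comes from Vpreb3, whose product associates with newly made immunoglobulin chains and is related to the surrogate light chain of precursor B cells, and from Tmem108, a transmembrane protein best studied in neurons. The other markers fixed for it were Gadd45a, a growth arrest and DNA damage response gene, Plac8, a small cysteine-rich protein of several leukocytes, and H2-Oa, a chain of the H2-O protein that restrains peptide loading of MHC class II. The octamer ATTTGCAT, the binding motif of the OCT1 and OCT2 factors that many B cell promoters use, was searched on both strands in the 250 bases before each RefSeq start (assembly GRCm38.p6, the same build as mm10). It was found in 526 of 32851 such windows (1.60%), and among the markers in the windows of Vpreb3 and Gadd45a but in none of the windows of Tmem108, Plac8 and H2-Oa. The windows of Vpreb3 and Gadd45a are shown because they were the marker windows that held the octamer. Each runs 5′ to 3′ with the octamer or its reverse complement in capitals, on the plus strand at chr10:75948050-75948299 for Vpreb3 and on the minus strand at chr6:67037408-67037657 for Gadd45a.
Vpreb3: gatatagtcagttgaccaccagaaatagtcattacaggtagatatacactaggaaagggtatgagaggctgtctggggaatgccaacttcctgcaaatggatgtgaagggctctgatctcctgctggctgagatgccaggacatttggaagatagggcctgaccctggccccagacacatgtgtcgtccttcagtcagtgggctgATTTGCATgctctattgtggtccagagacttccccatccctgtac
Gadd45a: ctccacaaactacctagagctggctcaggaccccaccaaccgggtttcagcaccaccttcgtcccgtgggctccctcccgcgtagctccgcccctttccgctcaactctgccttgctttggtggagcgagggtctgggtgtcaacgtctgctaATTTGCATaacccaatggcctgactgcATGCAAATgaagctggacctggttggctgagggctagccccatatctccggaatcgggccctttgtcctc
The Vpreb3 match begins 45 bases before the start used, at chr10:75948300. That start and its window lie inside the Vpreb3 gene span of 75943024 to 75949657, and no window before the upstream end of the span was searched. The pair in Gadd45a begins 97 and 70 bases before its start, the latter on the opposite strand. A match describes these letters and shows no binding.

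The cells of cluster 3 were B cells by their identity genes. Cd79a, the signalling chain of the B cell receptor, had a UMI in 345 of 345 cells of the 5XFAD library and in 355 of 357 cells (99.4%) of the WT library. Its level, as CPM (the UMIs of the gene scaled to a total of 1000000 UMIs summed over the cells of the cluster), was 2082 and 1844 CPM in the 5XFAD and WT libraries, the order in which all pairs of values are given, against 21.6 and 84.6 CPM in the T lineage clusters 8, 10, 11, 13 and 14. Markers of T cells summed to 22.1 and 22.5 CPM over 13 genes, below the 42.3 and 42.6 CPM of the other B clusters, and Cd4, Cd8a and Cd8b1 were at 0. Innate lymphoid markers summed to 48.3 and 54.6 CPM against 52.8 and 52.5 CPM in the other B clusters. The myeloid sum of 153 and 164 CPM was nearly all Cst3 (146 and 154 CPM), with S100a8, S100a9, C1qb and Adgre1 at 0. The 2 libraries shared 3 cell barcodes, none of which lay in cluster 3 in both, and 7 cells of cluster 3 carried 2 or more T cell UMIs (5 in 5XFAD and 2 in WT).

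The 5 markers set cluster 3 apart only modestly. They were fixed for it with earlier results of these data known, so their being higher here is no test and lends the name no weight. All 5 were higher than the mean of the other B clusters in both libraries, as were 15.7% of all measured genes, but none reached 1.5-fold in both. Of the 5, 2, Tmem108 and Gadd45a, were at least 25% higher in both, as were 0.244% of all measured genes. Tmem108 (chromosome 9, 103482936 to 103761900) stood at 148 CPM (interval 130 to 167) in 5XFAD and 130 CPM (114 to 148) in WT. Cluster 3 had the highest Tmem108 level of the 6 clusters in WT, where cluster 2 followed with 113 CPM and cluster 5 was lowest with 56.0 CPM, and it was second in 5XFAD behind cluster 2 with 155 CPM. Vpreb3 (chromosome 10, 75943024 to 75949657) was at 230 CPM (208 to 254) and 226 CPM (204 to 249). In 5XFAD this was the highest level, with cluster 0 next at 180 CPM. In WT clusters 5 and 0 were higher, at 263 and 248 CPM, so Vpreb3 did not separate cluster 3 from them there.

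Cluster 4 equalled or passed cluster 3 for Gadd45a and Plac8. Gadd45a (chromosome 6, 67035096 to 67037407) was at 130 CPM (114 to 148) and 126 CPM (110 to 144) in cluster 3, and at 136 and 127 CPM in cluster 4. Plac8 (chromosome 5, 100551589 to 100572253) was at 1092 and 914 CPM, second to cluster 4 with 1407 and 1225 CPM and above the other clusters, the lowest of which was cluster 5 with 579 and 464 CPM. H2-Oa (chromosome 17, 34092379 to 34095234) was at 241 CPM (219 to 266) and 266 CPM (243 to 291), and its interval held the level of cluster 0 in both libraries (251 and 245 CPM) and that of cluster 4 in WT (260 CPM), while cluster 4 was at 269 CPM in 5XFAD. Tmem108 parted the 2 clusters, since cluster 4 held 87.3 and 63.3 CPM of it.

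**Figure D1:**
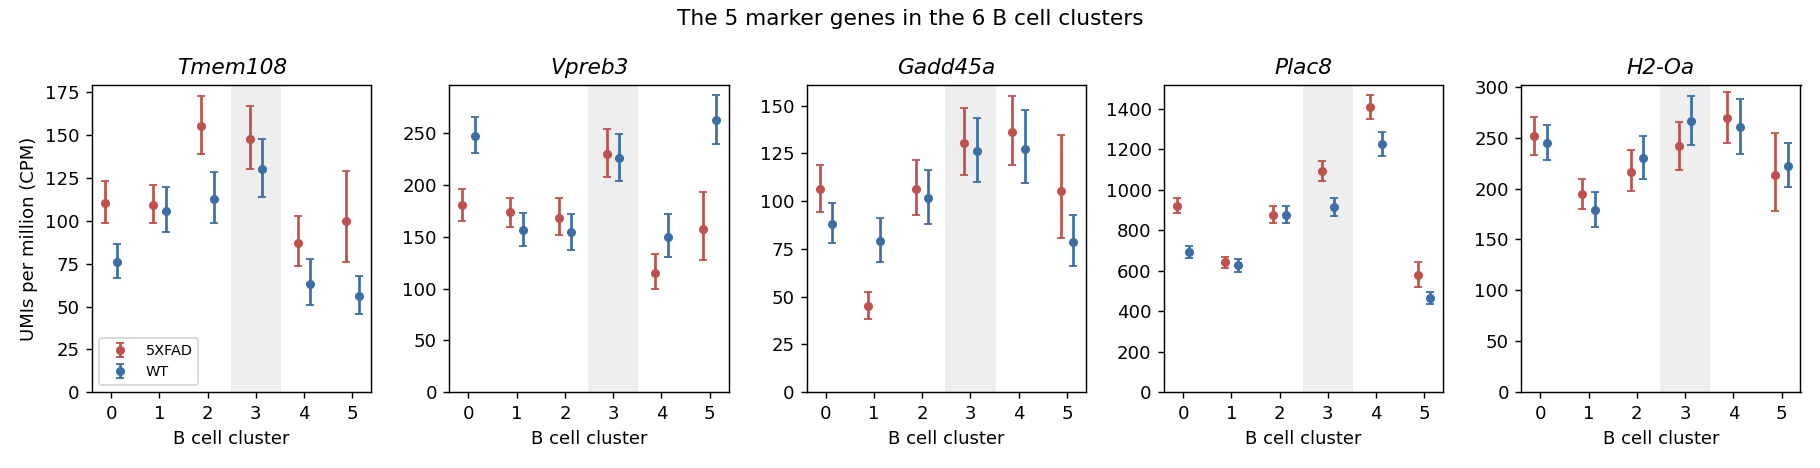
Level of the 5 marker genes (CPM, vertical axis from 0) in B cell clusters 0 to 5 (horizontal axis) in the 5XFAD (red) and WT (blue) libraries, with exact 95% Poisson intervals as bars and cluster 3 shaded. Cluster 3 lies in the upper range for every marker, with Vpreb3 at 230 and 226 CPM, but another cluster reaches or passes it for each gene in at least one library.

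The same was seen cell by cell. After each cell was thinned to 3000 UMIs, which left out 3 and 7 shallower cells, Vpreb3 had a UMI in 44.4% (39.1 to 49.9) of 342 cells of 5XFAD and 44.6% (39.3 to 49.9) of 350 cells of WT. In the other B clusters the shares were 34.4% and 39.6%, and in the T lineage, which should lack the gene, 0.413% and 2.81%. These cells had held a median of 4944.5 and 4827.5 UMIs in cluster 3, 5158 and 4829.5 in the other B clusters and 5674.5 and 5751 in the T lineage. Without thinning the shares in cluster 3 were 58.3% and 57.4%. Tmem108 was found in 31.0% and 26.0% of cells against 24.8% and 18.8%, Gadd45a in 27.5% and 26.0% against 19.1% and 18.6%, and Plac8 in 82.2% and 83.1% against 76.1% and 70.8%. H2-Oa had no fixed order in 5XFAD, where 45.0% in cluster 3 stood below 48.3%, but 41.2% stood above 36.4% when cells were thinned to 2000 UMIs; in WT 52.6% stood above 45.2%. A cell of cluster 3 most often held 2 of the 5 markers (36.5% and 32.6% of cells), all 5 were seen in 5 and 7 cells (1.46% and 2%, against 0.856% and 0.523% of the other B cells), and none in 15 and 10 cells (4.39% and 2.86%). The distributions of cluster 3 and the other B clusters therefore overlapped broadly, and no marker or number of markers by itself told a cell of cluster 3 from other B cells.

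Cluster 3 made up about the same share of both libraries. It held 10.0% (9.04 to 11.1) of the 3443 cells of 5XFAD and 10.4% (9.37 to 11.4) of the 3443 cells of WT (Clopper-Pearson intervals), and 14.6% (13.2 to 16.1) and 14.1% (12.7 to 15.5) of the B cells of clusters 0 to 5. The intervals of the 2 libraries overlapped on either base.

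Cells of cluster 3 carried a narrow transcriptome rich in ribosomal protein messages, a trait shared with cluster 4. Their median depth was 4914 UMIs in 5XFAD and 4801 in WT, within the range of the other B clusters, yet at 3000 UMIs per cell they showed a median of 1081 and 1139.5 genes. Cluster 4 was lower, with 1068 and 1128 genes, and the remaining clusters lay between 1132 and 1251.5. Ribosomal protein genes took a median of 36.6% and 32.5% of UMIs in cluster 3 and 38.5% and 33.7% in cluster 4, while the other clusters lay between 28.2% and 32.5% in 5XFAD and between 25% and 28.4% in WT. A set of 86 measured genes was chosen after these shares were seen, by the symbol pattern of cytosolic ribosomal proteins used for the shares. The pattern also takes in genes of like symbol, such as ribosomal protein S6 kinases, so not all 86 need encode ribosomal proteins. Of the 86, 80 were higher than the mean of the other B clusters in both libraries and 4 lower. Their median log2 ratios were 0.16 and 0.19, with 0 past 1.5-fold. Of all measured genes, 15.7% were higher in both and 54.5% lower in both by any amount. Mitochondrial UMIs, at medians of 4.70% and 4.85%, lay within the range of the other B clusters. Across 4915 genes the log2(CPM + 1) profile of cluster 3 was closest to that of cluster 4 (Pearson r across genes 0.977 and 0.978), narrowly ahead of cluster 0 in 5XFAD and cluster 2 in WT (0.976 each), and farthest from cluster 5 (0.936 and 0.950), where genes are not independent replicates and all clusters share a library.

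**Figure D2:**
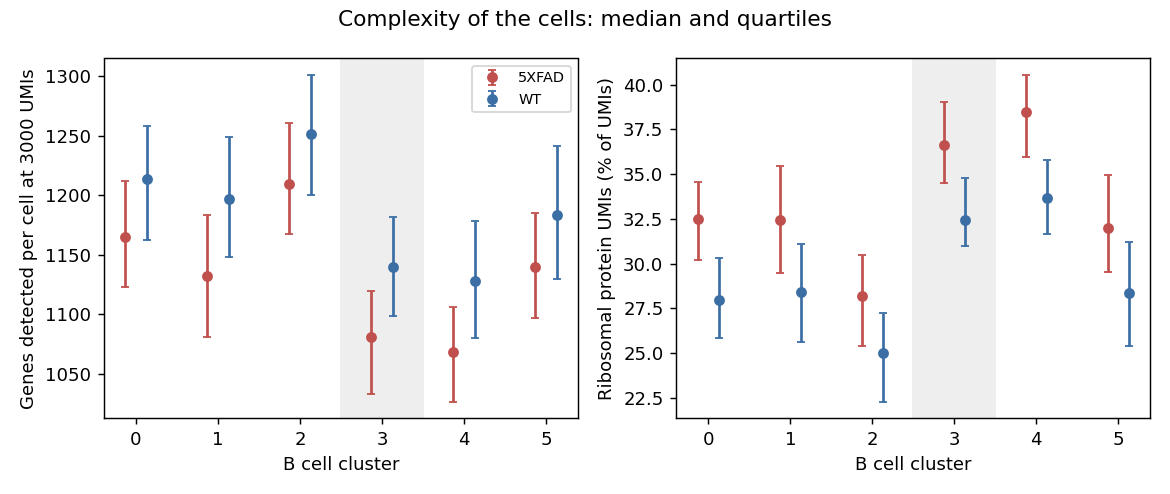
Genes detected per cell at 3000 UMIs (left) and ribosomal protein UMIs as a percentage of UMIs (right) in B cell clusters 0 to 5, as medians with quartile bars, in 5XFAD (red) and WT (blue); the vertical axes do not start at 0 and cluster 3 is shaded. Clusters 3 and 4 have the fewest genes, 1081 and 1068 in 5XFAD, and the largest ribosomal share, 36.6% and 38.5%.

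No gene marked cluster 3 strongly. Of 4915 genes with a mean of at least 20 CPM, 0 (0%) were at least 1.5-fold higher than the mean of the other B clusters in both libraries and 65 (1.32%) at least 1.5-fold lower. With limits of at least 25% higher or 20% lower, added after the first counts were seen, 12 genes (0.244%) were higher and 455 (9.26%) lower. The same 1.5-fold rule gave 28, 154, 51, 10 and 180 higher genes for clusters 0, 1, 2, 4 and 5, so cluster 3 had the fewest of the 6. It was the highest of the 6 clusters in both libraries for 59 genes, against 180 to 835 for the other clusters, and the lowest for 273. Median log2 ratios over all measured genes were -0.14 in 5XFAD and -0.10 in WT, and median-of-ratios scaling moved these to 0.00 and 0.01 and left 1 higher and 28 lower genes. Across 4894 genes with a known length, log2 ratios went down with transcript length (Spearman correlation across genes -0.40 in 5XFAD and -0.33 in WT), and the median length was 4171 bases for the 65 lower genes and 3485 for all. The part of gene complexity, ribosomal content and length in these differences was not tested.

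The genes highest in cluster 3 beside Tmem108 and Gadd45a stood only slightly above the other B clusters. Prdx6, a peroxiredoxin that reduces lipid peroxides, was at 315 CPM (289 to 343) in 5XFAD and 226 CPM (204 to 249) in WT, the highest of the 6 clusters in both, with log2 ratios of 0.51 and 0.37. Got1, the cytosolic aspartate aminotransferase, was at 276 and 214 CPM (log2 ratios 0.40 and 0.38), first in 5XFAD and second to cluster 2 in WT. Ier5l was at 64.0 and 72.6 CPM, first in both. Svbp, a partner of the vasohibin tubulin carboxypeptidases, was at 135 and 124 CPM and Kin, a DNA- and RNA-binding protein, at 55.2 and 50.1 CPM, each first in both. Arhgap31 reached 77.3 and 55.2 CPM but ranked 2 and 3. Hsbp1 (log2 ratios 0.34 and 0.30), D8Ertd738e (0.28 and 0.36) and the oxidative phosphorylation genes Ndufa5 (0.38 and 0.29) and Atp5md (0.30 and 0.30) completed the 12 highest genes by the rule for named genes. All these differences were under 1.5-fold except those of Ier5l and Tmem108 in WT, at log2 ratios of 0.62 and 0.65.

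Among the genes that were lower, 20 of 65 were past 1.5-fold in both libraries whichever reference was used, the mean of the other B clusters, that mean without cluster 5, or their median. Neat1, the long non-coding RNA of nuclear paraspeckles, was at 90.1 CPM (76.5 to 105) in 5XFAD and 123 CPM (107 to 140) in WT, against 147, 147, 201, 90.3 and 222 CPM in clusters 0, 1, 2, 4 and 5 of 5XFAD, so that clusters 3 and 4 were low together. Dleu2, a long non-coding RNA that hosts microRNA genes, was the lowest of the 6 in both libraries with 50 and 49.5 CPM (log2 ratios -0.79 and -0.74). Cd180, a Toll-like receptor homologue of B cells, was at 36.6 CPM (28.1 to 46.9) and 64.2 CPM (52.9 to 77.1), with log2 ratios of -0.86 and -0.71. Of genes named after their values were seen, Cd44, an adhesion receptor raised on activated and memory lymphocytes, showed the widest gap below every other cluster, with 21.5 and 21.9 CPM against 30.1 to 44.4 CPM in 5XFAD and 34.1 to 42.7 CPM in WT. Mitochondrial mt-Nd6, the messenger encoded on the strand opposite to the other mitochondrial messengers, was also lowest in both, at 54.7 and 56.8 CPM with log2 ratios of -0.82 and -0.83.

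Many of the low values depended on the reference. Only 27 of the 65 lower genes were past 1.5-fold in both libraries without cluster 5 in the reference. Jun, an AP-1 subunit, was at 43.6 and 180 CPM in cluster 3 and at 672 and 1730 CPM in cluster 5, and its log2 ratios of -1.93 and -1.42 became 0.17 and 0.10 without cluster 5. The heat shock chaperone genes Hspa1a and Hspa1b were also highest in cluster 5. Hspa1a had 6 UMIs (3.49 CPM) in 5XFAD and 45 UMIs (25.3 CPM) in WT, and Hspa1b had 2 UMIs (1.16 CPM) and 50 UMIs (28.1 CPM), while cluster 5 held 315 and 571 CPM of Hspa1a and 407 and 602 CPM of Hspa1b. Without cluster 5 the log2 ratios of Hspa1a were 1.07 and -0.06 and those of Hspa1b -1.02 and -0.46, in place of -4.20 and -2.42 and of -6.16 and -2.43, so in 5XFAD the pair then lay on opposite sides of 0, on 6 and 2 UMIs. Apoe, a lipid carrier, was high in cluster 4 at 2001 and 1316 CPM; its 502 and 250 CPM in cluster 3 had ranks 4 and 5, with log2 ratios of -0.85 and -1.03 that shrank to -0.49 and -0.36 against the median of the other clusters. Myc, a growth-promoting transcription factor, was at 31.4 and 48.4 CPM against 213 and 156 CPM in cluster 1, and only cluster 4 was lower in both libraries. The log2 ratios of Myc, -1.74 and -0.98, were -1.48 and -0.65 without cluster 5, still past 1.5-fold, and -1.08 and -0.28 against the median of the other clusters. Gpr183, the oxysterol receptor that positions B cells in follicles, was at 145 and 185 CPM against 578 and 619 CPM in cluster 5, and Fchsd2, an endocytic adaptor, at 44.8 and 71.5 CPM against 124 and 207 CPM there. Without cluster 5 the log2 ratios of Gpr183 were -0.51 and -0.26 (-0.50 and -0.56 against the median) and those of Fchsd2 -0.51 and -0.46.

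The windows of Hspa1a and Hspa1b are shown because both genes were high in cluster 5 and because their transcripts are near copies, so that short 3′ reads can be split between them uncertainly. Heat shock factor binds inverted GAA units, searched here on both strands as GAANNTTC and, in the other phase, as TTCNNGAA. Of 32851 windows of 250 bases, 2199 (6.69%) hold GAANNTTC and 4218 (12.8%) hold either form. Only GAANNTTC was found in the windows of Hspa1a and Hspa1b. Both windows lie on the minus strand, at chr17:34972157-34972406 for Hspa1a and chr17:34959239-34959488 for Hspa1b, are written 5′ to 3′ with the match in capitals, and are credited to RefSeq (GRCm38.p6).
Hspa1a: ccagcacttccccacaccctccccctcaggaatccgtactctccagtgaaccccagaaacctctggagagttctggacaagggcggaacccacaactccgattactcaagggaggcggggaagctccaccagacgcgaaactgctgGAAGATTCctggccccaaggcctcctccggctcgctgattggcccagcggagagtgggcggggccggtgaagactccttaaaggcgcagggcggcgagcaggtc
Hspa1b: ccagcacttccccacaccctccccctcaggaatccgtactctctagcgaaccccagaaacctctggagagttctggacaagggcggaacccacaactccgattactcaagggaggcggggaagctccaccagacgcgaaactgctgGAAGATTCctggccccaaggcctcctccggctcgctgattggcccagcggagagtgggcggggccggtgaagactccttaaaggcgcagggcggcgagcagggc
They hold the same base at 247 of 250 places (98.8%), and the match begins 104 bases before the start in both.

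**Figure D3:**
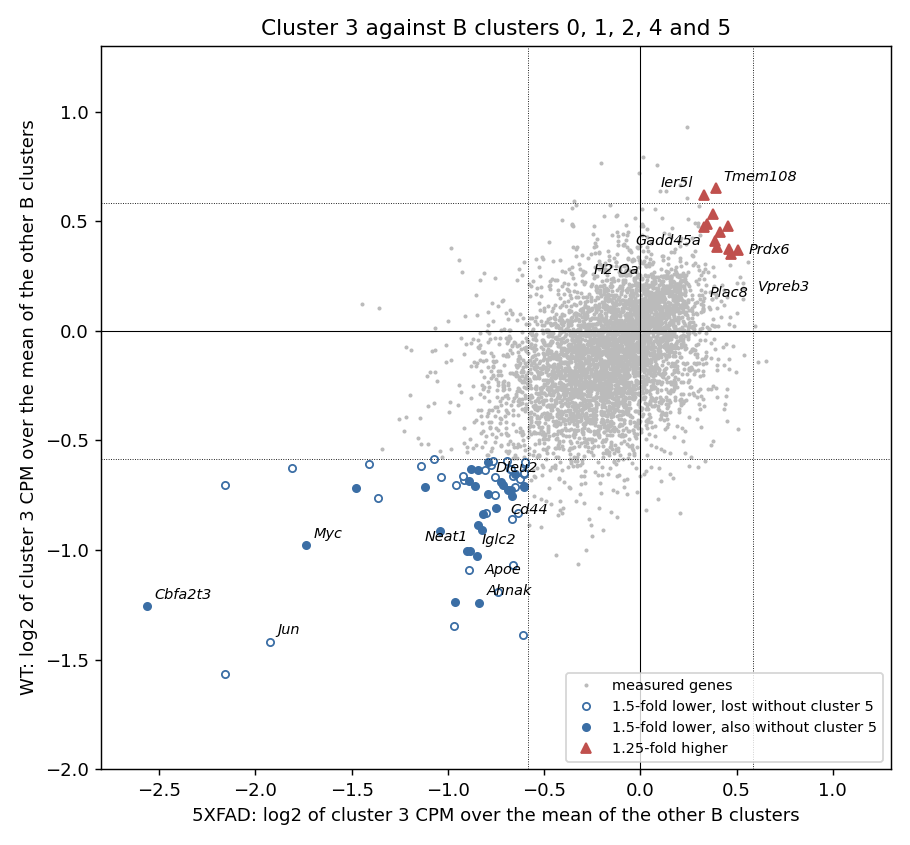
Each grey dot is 1 of the 4915 measured genes, by the log2 ratio of cluster 3 over the mean of B clusters 0, 1, 2, 4 and 5 in 5XFAD (horizontal) and WT (vertical); dotted lines mark 1.5-fold, red triangles the 12 genes at least 25% higher, blue circles the genes at least 1.5-fold lower (filled where this held without cluster 5), and 2 genes lie outside the axes. No dot lies beyond 1.5-fold in the upper right corner, and 65 genes lie beyond it in the lower left, of which 2 are outside the axes.

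The stage of the cells was read from lists of B cell genes chosen for this tissue. Of the early B cell genes, Vpreb1, Vpreb2, Igll1, Rag1, Rag2 and Dntt had 0 UMIs in cluster 3, which allows at most 1.74 and 1.69 CPM, so no other surrogate light chain or recombination gene was detected beside Vpreb3. Cd93, which marks transitional B cells newly arrived from the marrow, was at 6.4 CPM (3.19 to 11.4) and 11.8 CPM (7.32 to 18.1), inside the range of the other B clusters, and 6 of 8 measured transitional genes were lower than the other clusters in both libraries and 1, Vpreb3, higher, against 54.5% and 15.7% of all measured genes. Genes of mature recirculating follicular B cells were all expressed but all lower: 12 of 12 were below the mean of the other B clusters in both libraries, where 54.5% of all measured genes were, with median log2 ratios of -0.35 and -0.46 beside -0.14 and -0.10 over all genes, and 0 past 1.5-fold. Fcer2a, the low-affinity IgE receptor CD23, was at 227 and 277 CPM (log2 ratios -0.51 and -0.47), rank 5 in both. Ccr7, the chemokine receptor that leads lymphocytes into T cell zones, was at 512 and 616 CPM (-0.19 and -0.16). The follicular medians kept their sign under the other scalings and references, at -0.20 and -0.35 with median-of-ratios scaling and -0.30 and -0.28 without cluster 5.

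Other maturation lists gave little. Beside their counts, 15.7% of all measured genes were higher in both libraries, 54.5% lower and 1.32% lower past 1.5-fold. Of 7 measured marginal zone genes, 2 were higher and 5 lower in both libraries with 1, Dusp16, past 1.5-fold (-0.37 and -0.57 without cluster 5). The 2 higher were Plac8, itself a fixed marker of cluster 3, and Dtx1, with log2 ratios of only 0.04 and 0.01. The defining genes Cd1d1 and Cd9 stood at 6.98 and 11.3 CPM and at 3.49 and 6.19 CPM. Ahnak, a giant scaffold protein and the 1 measured member of the B-1 list, was 17.4 and 22.5 CPM (log2 ratios -0.84 and -1.24); it is far higher in the T lineage, at 640 and 779 CPM. The germinal centre list summed to 99.4 and 82.7 CPM, with 2 of 13 members measured and 3 at 0 UMIs, Gcsam among them. The plasma cell list summed to 396 and 446 CPM, of which Mzb1 gave 177 and 179 CPM. Its 1 member of 11 at 0 UMIs in both libraries was Tnfrsf17, the plasma cell receptor BCMA. Of 5 measured plasma cell genes all 5 were lower in both libraries, Slamf7 past 1.5-fold.

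Cluster 3 had the lowest share of lambda light chain cells of the 6 B clusters in both libraries. Ighm was at 707 CPM (668 to 748) in 5XFAD and 1143 CPM (1094 to 1194) in WT, ranks 6 and 5 of the 6 clusters, and Ighd at 262 and 475 CPM, ranks 6 and 4. Cells with at least 3 heavy chain constant UMIs were called by the majority: 0 of 266 cells in 5XFAD, which allows up to 1.38% by the exact interval, and 1 of 335 in WT (0.299%) were switched to IgG, IgA or IgE. Of cells with at least 3 light chain constant UMIs, 6 of 339 (1.77%, 0.652 to 3.81) in 5XFAD and 4 of 347 (1.15%, 0.315 to 2.93) in WT held more lambda than kappa. In the other B clusters these shares were 106 of 1982 (5.35%, 4.40 to 6.43) and 135 of 2161 (6.25%, 5.26 to 7.35). The counting intervals of cluster 3 and the rest did not overlap in either library. Cells are not replicates and the clusters were made from these same data, so this is a description and the difference was not tested. Cluster 2 was the nearest in WT, with 1.73%, and its intervals overlapped those of cluster 3 in both libraries (3.39% in 5XFAD). In 5XFAD the intervals of cluster 4 (3.31 to 9.15) and cluster 5 (1.39 to 9.61) overlapped it as well. Few T lineage cells could be called (27 and 63), with 3.70% and 3.17% lambda.

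The lambda constant genes followed the cells. Iglc2 was at 201 CPM (180 to 223) and 238 CPM (215 to 261) in cluster 3, against 481 and 709 CPM in cluster 0 and 239 and 233 CPM in cluster 2, with log2 ratios to the mean of the other clusters of -0.88 and -1.0. Iglc3 was lowest of the 6 in both libraries at 120 and 142 CPM, and Iglc1 was at 50.6 and 45.0 CPM. Without cluster 5 the ratios were -0.71 and -0.69 for Iglc2, -0.56 and -0.63 for Iglc3 and -0.53 and -1.07 for Iglc1, so only Iglc2 of these was past 1.5-fold in both. Iglc2 and Iglc3 are near copies, so reads may have been divided between these 2 uncertainly. Igkc, the kappa constant gene, was at 4169 and 3505 CPM, ranks 3 and 4, inside the range of the other clusters. Whether light chain genes were among those used to make the clusters is not stated in the labels.

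**Figure D4:**
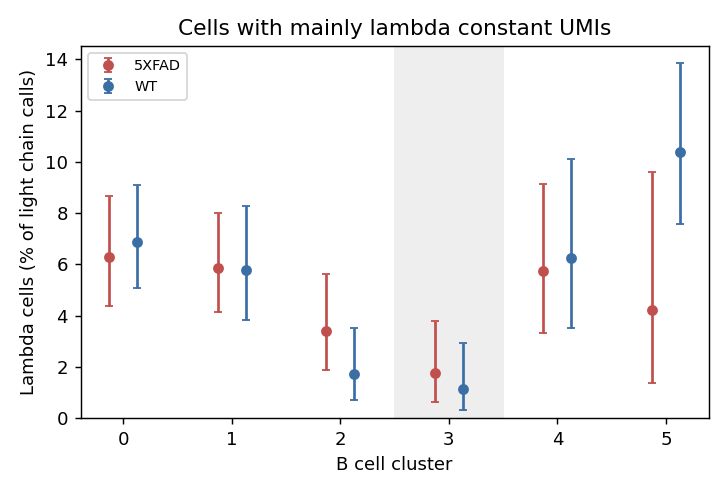
Cells with more lambda than kappa constant UMIs as a percentage of cells with at least 3 light chain constant UMIs (vertical axis from 0) in B cell clusters 0 to 5, with exact 95% Clopper-Pearson bars, in 5XFAD (red) and WT (blue); cluster 3 is shaded. Cluster 3 has the lowest point in both libraries, 1.77% and 1.15%, and cluster 2 is next.

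Signalling, antigen presentation and energy genes differed from the other B clusters by small steps. Of 16 B cell receptor signalling genes 15 were lower in both libraries and 1, Cd79a, higher, with medians of -0.26 and -0.19, beside -0.14 and -0.10 and a lower share of 54.5% over all genes, and 0 past 1.5-fold. Cd79b, the partner chain of Cd79a, was at 322 and 449 CPM (-0.43 and -0.35). Of 8 measured receptor inhibitors 7 were lower, with Ptpn6, the phosphatase SHP-1, past 1.5-fold at 52.9 and 134 CPM, a call lost without cluster 5 (-0.45 and -0.34) and against the median of the other clusters (-0.56 and -0.19). Among 13 MHC class II genes 7, the fixed marker H2-Oa among them, were higher and 4 lower in both, beside 15.7% and 54.5% of all measured genes. The list medians were 0.04 and 0.05, of which the 5XFAD value became -0.01 without cluster 5. Cd74, the invariant chain, was at 12996 and 11343 CPM, the highest of the 6 clusters in both, as was H2-DMa, a chain of the peptide exchanger H2-DM, at 534 and 542 CPM. H2-Ob, the partner chain of H2-Oa, was at 430 and 427 CPM and had rank 5 in both, so the 2 chains of H2-O did not move together. The oxidative phosphorylation list of 39 nuclear genes had 29 higher in both libraries and 1 lower, beside the same 15.7% and 54.5% of all measured genes. Its medians were 0.13 and 0.09, with 0 past 1.5-fold.

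The immediate early and heat shock lists were low mainly in comparison with cluster 5, and the trafficking list less so. Beside the counts that follow, 54.5% of all measured genes were lower in both libraries, 15.7% higher and 1.32% lower past 1.5-fold. Of 18 immediate early genes 15 were lower in both libraries and 6 past 1.5-fold (median log2 ratios -0.44 and -0.36), but without cluster 5 the medians were 0.06 and 0.09. Of 13 heat shock genes 11 were lower and 4 past 1.5-fold (-0.35 and -0.34), and the medians without cluster 5 were -0.14 and -0.06 and the WT median against the median of the other clusters was 0.01. Lymphocyte trafficking genes were lower for 15 of 17, with 2 past 1.5-fold, Gpr183 and Rgs1 (-0.70 and -0.12 for Rgs1 without cluster 5), and the medians of -0.32 and -0.34 stayed at -0.22 and -0.24 without cluster 5. S1pr1, the receptor for exit from tissue, was at 185 and 196 CPM, rank 5 in both libraries. Of the BAFF and APRIL survival list 7 of 10 were lower in both, including Tnfrsf13b, the receptor TACI, lowest of the 6 clusters at 26.7 and 40.5 CPM. It was past 1.5-fold in both libraries, but not without cluster 5 (-0.40 and -0.61) or against the median (-0.44 and -0.43), and the WT median of this list went from -0.11 to 0.00 with median-of-ratios scaling. Of 12 growth arrest genes 1, Gadd45a, was higher in both libraries and 9 were lower, with medians of -0.17 and -0.12, near the -0.14 and -0.10 of all genes. Pmaip1, a pro-apoptotic BH3 protein, was past 1.5-fold at 28.5 and 20.8 CPM, but not without cluster 5 (-0.37 and -0.58).

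Within cluster 3 the median Fano factor (variance over mean of the thinned counts, smaller of the libraries) was 1.03 over 2929 genes, near the value of counting alone. The smaller library value was taken, and genes of few UMIs lie near this value in any case. The median therefore does not show that most genes varied by counting alone. Gm42418, a numbered gene model and so left out of the named genes, had the largest value, 6.68 in 5XFAD and 15.9 in WT. Among genes that could be named, the largest values belonged to Malat1, a nuclear non-coding RNA (6.49 in 5XFAD and 7.11 in WT), Fth1, the ferritin heavy chain (5.62 and 4.74), and Egr1, an immediate early factor (4.43 and 5.10). Egr1 was found in few cells, 6.73% in 5XFAD and 10.3% in WT, with up to 10 and 14 UMIs in a cell. Igkc (5.55 and 4.09) varied around means of 12.8 and 10.6 UMIs, whereas Iglc1 (3.82 and 3.56) was in 9.36% and 7.43% of cells with up to 10 UMIs. Jund (3.73 and 3.18), Tmsb4x (3.54 and 2.92) and AC149090.1 (2.88 and 2.62) came next. Of the markers, Plac8 varied most, with 2.51 and 2.06.

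Between the libraries, the ratios of cluster 3 largely followed those of the other B clusters, with some exceptions. Of 5601 genes with at least 50 UMIs in cluster 3, 355 (6.34%) were at least 1.5-fold higher in 5XFAD than in WT and 948 (16.9%) at least 1.5-fold lower, and the counting intervals lay above no change for 664 genes and below it for 1277. Median-of-ratios scaling, which moved the median of all genes from -0.10 to 0.00, gave 533 higher and 694 lower. Over the same genes the other B clusters had 204 to 686 higher and 519 to 948 lower, and across genes the log2 ratio of cluster 3 followed the mean of the other clusters with Pearson r 0.77, a description since all clusters come from the same 2 libraries. The ratio went down with transcript length (Spearman correlation across genes -0.46), with median lengths of 1979 bases for the higher and 4968 for the lower genes. Ribosomal protein UMIs were 36.6% in 5XFAD and 32.5% in WT, and the model Gm42418, which overlaps ribosomal RNA, averaged 38.7 and 123 UMIs per thinned cell. Haemoglobin and other red blood cell genes summed to 0.581 and 18.0 CPM in cluster 3 and 0.983 and 17.4 CPM in the other B clusters. The part of these library traits in the gene differences was not tested, and genotype and library cannot be told apart.

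The markers of cluster 3 were close between the libraries. The log2 ratios of 5XFAD over WT were 0.18 for Tmem108 (-0.08 to 0.45), 0.03 for Vpreb3 (-0.18 to 0.23), 0.05 for Gadd45a (-0.23 to 0.32) and -0.14 for H2-Oa (-0.34 to 0.05), whose intervals all held 0. Plac8 was higher in 5XFAD by 0.26 (0.16 to 0.35). None of the 5 was past 1.5-fold.

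The genes highest in 5XFAD relative to WT had like ratios in the other B clusters. Ost4, a subunit of the oligosaccharyltransferase, was at 221 and 83.9 CPM, a log2 ratio of 1.40 (1.12 to 1.68), and Atp5md at 703 and 293 CPM (1.26, 1.11 to 1.42). Stat4, a cytokine-signalling factor, was at 376 and 176 CPM (1.09, 0.90 to 1.29) and Apoe at 502 and 250 CPM (1.0, 0.84 to 1.17). Rnaset2a, Polr2l, Nmt1, Atp5k and Prkca, the other genes named here, had ratios from 1.11 to 1.33. The ratio in cluster 3 lay inside the range of the other clusters for each of these genes except Ost4 (1.40 against at most 1.38) and Atp5k (1.14 against at most 1.07).

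Among the genes lowest in 5XFAD relative to WT were several that respond early to stimulation. Fosb, an AP-1 subunit, had 63 UMIs (36.6 CPM) and 382 UMIs (215 CPM), a log2 ratio of -2.55 (-2.96 to -2.17), Jun 75 and 319 UMIs (-2.04, -2.42 to -1.67) and Egr3 43 and 166 UMIs (-1.9, -2.42 to -1.41). Ciita, the transactivator that switches on MHC class II genes, was at 38.4 CPM (29.7 to 48.8) in 5XFAD and 120 CPM (104 to 137) in WT, a ratio of -1.64 (-2.06 to -1.24). Of the 14 genes of the MHC class II list, 2, Ciita itself and Rfx5, were lower past 1.5-fold, near the 16.9% of all genes, and 0 were higher, with a median of 0.04. Cd69, an early activation receptor that holds lymphocytes in tissue, was at 118 and 295 CPM (-1.32, -1.56 to -1.09). Chst3, Mindy2 and Lars2 had ratios of -1.78, -1.71 and -1.24, with 1317 and 3208 UMIs of Lars2. Mindy2, with an interval of -2.34 to -1.12, lay outside the -1.06 to -0.60 of the other B clusters, and Fosb lay below their -2.22 to -1.02, although its interval reached into that range. The ratios of Jun, Egr3, Ciita, Cd69, Chst3 and Lars2 lay inside the range of the other clusters.

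By list, 37 of 39 oxidative phosphorylation genes were higher in 5XFAD than in WT, as were 41.4% of all genes. Higher past 1.5-fold were 13 of the 39, beside 6.34% of all genes. The list median was 0.49 (0.58 with median-of-ratios scaling) beside 0.38 to 0.45 in the other B clusters and -0.10 over all genes in cluster 3. B cell receptor signalling genes were lower for 12 of 16, as were 58.6% of all genes. Lower past 1.5-fold were 8 of the 16, beside 16.9% of all genes. The median of this pathway was -0.61 beside -0.62 to -0.40 elsewhere. Plcg2, a phospholipase of this pathway, was at 43.6 and 97.4 CPM (-1.16, -1.57 to -0.76), and Pik3cd, its lipid kinase, at 16.9 and 50.7 CPM (-1.59, -2.24 to -0.97) beside -1.16 to -0.33 elsewhere. The same 16.9% of all genes stands beside the lower counts of the next lists. Of 13 heat shock genes 0 were higher and 6 were lower past 1.5-fold (median -0.47), and of 17 immediate early genes 8 were lower (median -0.33). Of 12 follicular genes 4 were lower past 1.5-fold (median -0.36) and of 10 survival genes 5 (median -0.55), including Bcl2 at 22.7 and 61.3 CPM. The medians of these lists in cluster 3 lay inside the range of the other B clusters, except that of oxidative phosphorylation, which was above it.

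A few genes had a library ratio of another size in cluster 3 than in every other B cluster. Cd274, the checkpoint ligand PD-L1 (chromosome 19, 29362107 to 29388095), had 41 UMIs (23.8 CPM) in 5XFAD and 136 UMIs (76.5 CPM) in WT, a log2 ratio of -1.68 (-2.22 to -1.17) against -0.82 to -0.31 in the other B clusters. Helz, an RNA helicase (chromosome 11, 107546963 to 107693826), had 46 and 96 UMIs, a ratio of -1.01 (-1.55 to -0.49) against -0.26 to 0.14. Rif1, a DNA repair and replication timing factor (chromosome 2, 52072815 to 52126769), had 30 and 95 UMIs, a ratio of -1.62 (-2.26 to -1.01) against -0.83 to -0.45. Hsph1, a heat shock co-chaperone, was at -2.55 (-3.42 to -1.78) against -2.19 to -0.64, where the interval reached into the range. In the other direction Atox1, a copper chaperone, was at 73.3 and 38.3 CPM (0.94, 0.50 to 1.38) against -0.05 to 0.30, and Il10rb, a chain of the interleukin-10 receptor, at 50.6 and 32.1 CPM (0.66, 0.16 to 1.17) against -0.49 to -0.10. Glrx3 (0.60) and Sf3a3 (0.52) had intervals that reached into the range of the other clusters. These 8 were picked as the extremes over all genes, so their differences are a description, and no difference between clusters was tested.

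**Figure D5:**
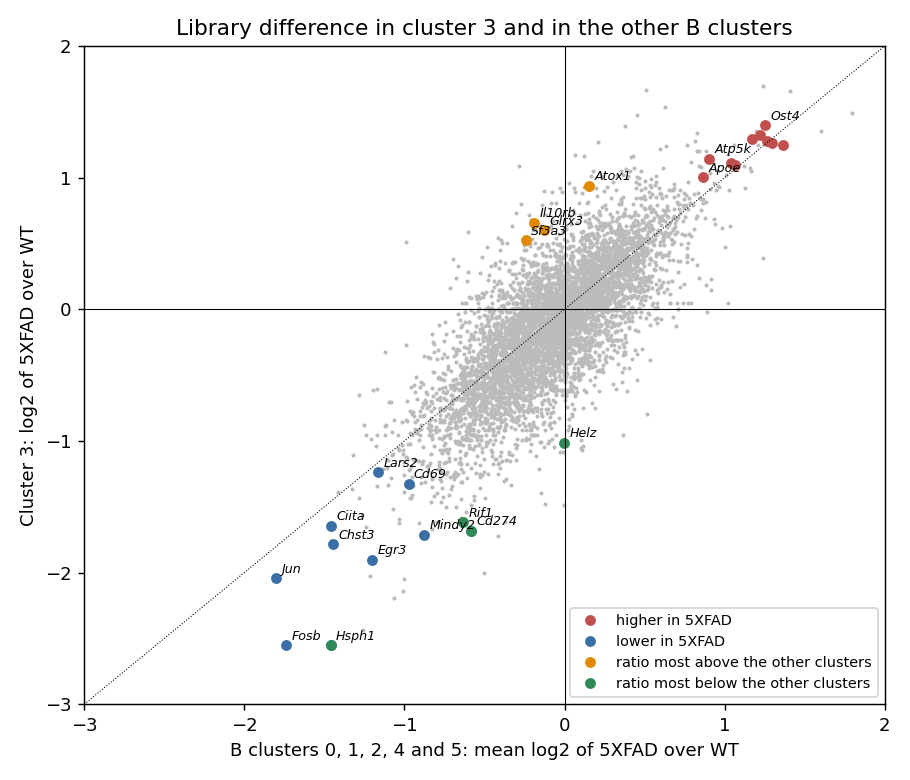
Log2 ratio of 5XFAD over WT for each gene in cluster 3 (vertical) against the mean of B clusters 0, 1, 2, 4 and 5 (horizontal); the dotted line marks equal ratios, coloured points the named genes, and 2 genes lie outside the axes. Most genes lie along the line, while Cd274 (-1.68), Rif1 (-1.62) and Helz (-1.01) lie below it and Atox1 (0.94) above.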

How the data were processed

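Single-cell libraries were processed with Cell Ranger 6.0.1 and mm10, per the submitters' processing notes; later filters were not stated there. The authors deposited natural log values, ln(1 + counts per 10000 UMIs), with each cell's total UMI count, percent of mitochondrial UMIs, library and cluster number. UMI counts were recovered by inverting the log values: 100% of nonzero values were whole within a relative tolerance of 1e-06, and all 6886 cell sums equalled the deposited totals. The library named AD was taken as 5XFAD. A second deposited normalized table was not used here. Clusters come from the authors, and no doublet caller was run.

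UMIs were summed per cluster and library and scaled to CPM. Genes past 1.5-fold are counted; log2 ratios of cluster 3 use the mean CPM of the other 5 B clusters in each library, with a mean of at least 20 CPM, and ratios between libraries use at least 50 UMIs, with exact conditional binomial intervals. A level of 0 is read as up to 3 counts. Cells with more lambda (Iglc1 to Iglc3) than kappa (Igkc) UMIs count as lambda. The longest GENCODE vM21 transcript gave lengths, and RefSeq GRCm38.p6 positions and promoters.

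Named genes were the 12 highest and 12 lowest in both libraries (at least 50 CPM), the 10 higher and 10 lower between libraries by the interval bound closest to equality, the 4 and 4 whose library ratio differed most from the other clusters (at least 100 UMIs), the 8 with the highest Fano factor (mean of at least 0.1 UMI), the 5 markers, and up to 4 members of each of 29 gene lists past 1.5-fold. Receptor segments, ribosomal protein, mitochondrial, sex-linked and numbered gene models were left out. Some items are not reported here. List members named at smaller ratios were chosen as textbook members of their list after the values were seen. Alternatives were other scalings, references, minimum levels and cell filters. The members, lists and rules were chosen with earlier results of these data known. Scripts were tested on simulated counts. Python 3.11.15, numpy 2.4.6, scipy 1.17.1 and pandas 2.3.3 were used.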

Additional observations from a re-analysis of the deposited data

How the results depend on the processing

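No paired analysis was possible because each genotype was 1 pooled library, and for the same reason no library could be left out. The share of cluster 3 was 14.6% (5XFAD) and 14.1% (WT) of B clusters 0 to 5, and 13.1% and 12.96% without cells of 2 or more T cell UMIs, which also shrinks the denominator. The count of higher genes against the other B clusters went from 0 to 1 with median-of-ratios scaling, to 1 without cluster 5, to 8 at a mean of at least 5 CPM, and, by alternatives chosen after seeing the data, to 2 when ribosomal protein UMIs were left out of the scaling, to 1 against the median of the other clusters and to 12 at 25% higher. The 65 lower genes became 28 with median-of-ratios scaling, 36 without cluster 5, 28 at a mean of at least 50 CPM, 222 at 5 CPM and 455 at 20% lower. Thinning to 3000 UMIs gave 93, of which 46 were shared with the 65. Between libraries, the 355 higher genes became 533 with median-of-ratios scaling, 117 at 200 UMIs or more and 649 at 20 or more. The 948 lower genes became 250 and 1565 at those UMI limits, and thinning shared 182 of the 355 and 522 of the 948. Among genes named from the comparison of clusters, log2 ratios to the other B clusters changed sign for Jun (0.17 in 5XFAD and 0.10 in WT without cluster 5, 0.14 and 0.19 against the median), Hspa1a (1.07 in 5XFAD without cluster 5, 1.54 and 0.35 against the median), Hspa1b (0.14 in WT against the median) and Klf6 (0.054 in WT without cluster 5, 0.032 against the median), since cluster 5 held the high values. Other genes of the 65 also changed sign without cluster 5: Klf4 (0.05 in 5XFAD and 0.18 in WT), Fosb (0.14 in WT) and Hist1h2bc (0.31 in 5XFAD). Of the values of named genes and lists under alternatives, 1818 moved by less than their counting interval (for lists, the spread of their members), 130 by more, and 10 past 1.5-fold changed sign. Klf4, Fosb and Hist1h2bc against the other clusters are not in these counts. For the other moves the cause was not tested. Depth limits genes of few UMIs: a count of 0 in cluster 3 allows up to 1.74 and 1.69 CPM.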

Other observations

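The memory B cell and type I interferon lists had few measured members and none past 1.5-fold against the other B clusters. Of 4 measured memory B cell genes all 4 were lower than the other B clusters in both libraries, as were 54.5% of all genes (median log2 ratios -0.59 and -0.22), among them Zbtb20, a transcriptional repressor, at 64.5 and 125 CPM and Pdcd1lg2, the checkpoint ligand PD-L2, at 25 and 46.7 CPM. This list was also lower in 5XFAD than in WT, with a median of -0.63 that lay below the -0.33 to -0.08 of the other B clusters. Of 4 measured type I interferon response genes 3 were lower and 1 higher in both libraries (medians -0.45 and -0.51): Ifi203 was at 71.5 and 105 CPM.

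Nucleolar ribosome biogenesis genes lay near the background of all genes. Of 14 measured genes 0 were higher and 7 lower in both libraries, against 15.7% and 54.5% of all genes (medians -0.19 and -0.11 beside -0.14 and -0.10, the WT value 0.22 against the median of the other clusters), with nucleolin (Ncl) at 944 and 898 CPM and Npm1 at 892 and 957 CPM. Of 14 cholesterol and lipid genes 1, Scd1, a fatty acid desaturase, was higher in both libraries at 612 and 682 CPM, and 8 were lower, with Apoe past 1.5-fold. The Pearson correlation across 4915 genes of the cluster 3 log2 ratios in 5XFAD with those in WT was 0.45, where genes are not independent replicates.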
